A study of Arabidopsis thaliana with 27 samples.

Results

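The transcripts described here had a lower signal in callus of both nonsense-mediated decay mutants than in the wild type at every time sampled. They were chosen by measured values: control probe sets were set aside, a mean log2 signal of at least 5 over the 27 arrays was required, and the mean of the 3 arrays of a mutant had to lie at least 0.3 below the wild type mean of the same day in all 6 comparisons. Of 22746 probe sets other than controls, 14878 reached the mean level and 181 met the whole rule. The 6 differences from the wild type that chose these members are therefore given as a description, with no test.

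RNA came from Arabidopsis thaliana callus, hybridised to Affymetrix arrays with 1 array per sample. Pieces of hypocotyl from 12-day-old seedlings were turned into callus over 6 days of culture, moved to a shoot-inducing medium, and taken on day 0, 3 or 6 there. The 9 groups of 3 arrays combine those times with 3 genotypes, all in ecotype Columbia (Col-0) and all given the same 2 media. These are the wild type, the UPF1 mutant named lba1-1/upf1-1 in the labels (here upf1-1) and the UPF3 mutant upf3-1, with 1 allele for each gene. For replicate 1 of upf1-1 on day 0 the title names the wild type in one place, and the genotype and source name, which give upf1-1, were used. Whether the replicates are separate cultures is not stated, so the p-values below cover the spread among these arrays alone, and part of it may be technical.

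UPF1 is an RNA helicase and UPF3 a partner of it in nonsense-mediated mRNA decay, which degrades transcripts whose stop codon lies in an unusual place, such as upstream of an exon junction or before a long 3′ untranslated region. Direct targets of this decay are known to accumulate when it is impaired. In plants, impaired decay is also known to alter defence gene expression and development. Transfer of callus to shoot medium starts the formation of green tissue and shoots.

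The UPF3 signal ran from 5.70 to 6.38 in the 9 upf3-1 arrays, from 8.98 to 9.14 in the 9 wild type arrays and from 9.45 to 9.73 in the 9 upf1-1 arrays, so the 9 upf3-1 arrays stood apart in the gene they are mutant for, and UPF3 itself did not meet the rule. Each of the 27 arrays was nearest to an array of its own group, and replicates correlated with r from 0.992 to 0.997 across probe sets. Of the callus markers 4 of 10 were measured, of root hair 2 of 4, of shoot meristem 2 of 6, of stomata 2 of 6, and none of 5 for xylem or of 4 for phloem. None of the measured markers was a member. Of the 7 green mesophyll markers 5 were measured, and the median difference of those 5 from the wild type was 1.01, 1.15 and 0.64 log2 in upf1-1 and 0.60, 0.80 and 0.65 in upf3-1 for days 0, 3 and 6. Their mean level was 6.43, 6.44 and 7.28 in the wild type, 7.54, 7.67 and 8.02 in upf1-1 and 7.18, 7.42 and 8.06 in upf3-1, and 4 of the 5 were called higher in all 6 comparisons. The 2 root hair markers had median differences of 0.20, 0.09 and -0.50 in upf1-1, with 0.85, 0.14 and 0.01 in upf3-1. The 4 callus markers had -0.33, -0.01 and -0.01 in upf1-1, with -0.24, -0.10 and -0.12 in upf3-1, and the 2 shoot meristem markers ran from -0.21 to -0.02. The 2 stomata markers stayed near background in every group, with group means from 2.90 to 3.1. The part of these marker differences in the results was not tested. In whole callus, fewer cells of a type and less RNA per cell cannot be told apart.

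The set was the smaller side of the response. Under the mirrored rule, at least 0.3 higher in all 6 comparisons, 895 probe sets were found. Among the 181 members the mean of the 6 differences ran from -2.38 to -0.38 log2 with a median of -0.63, which is a 1.55-fold lower signal, beside a median of -0.05 over all probe sets that reached the mean level. In 25 members it was -1 or lower, in 123 it lay between -1 and -0.5, and in 33 it was closer to 0 than that. For days 0, 3 and 6 in turn, the median difference was -0.56, -0.66 and -0.61 in upf1-1, and it was -0.49, -0.64 and -0.64 in upf3-1. The mean difference was deeper in upf1-1 for 92 members and deeper in upf3-1 for 89. The 2 mutants were compared with the same wild type arrays, so their differences are not independent of each other.

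**Figure D1:**
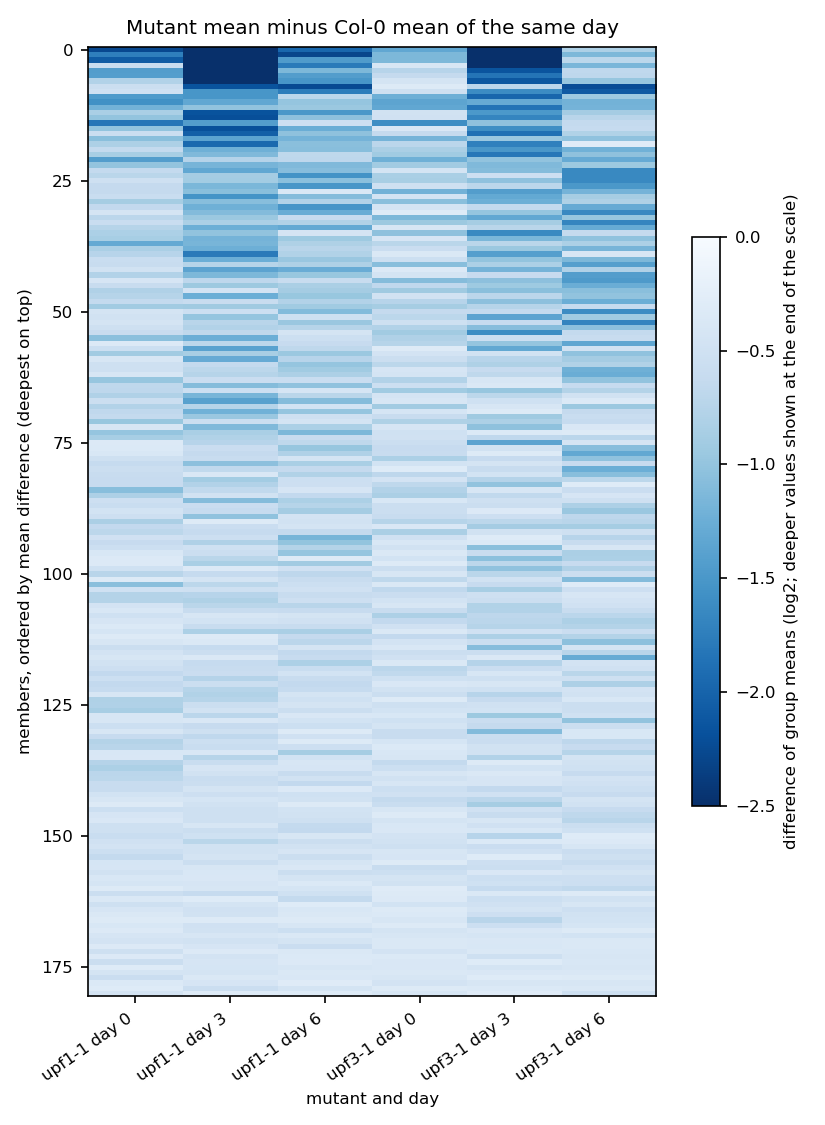
Each row is 1 of the 181 members, ordered by the mean of its 6 differences, and each column is a mutant on a day. Colour gives the mutant mean minus the Col-0 mean of the same day in log2 units, with the deepest differences in the darkest blue. The darkest cells lie in the day 3 columns at the top.

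The platform annotation gives 1 gene symbol for 90 members, several for 1 and none for 90, and only the first 90 are named. The members closest to the threshold show how sharp it is. The smallest gap was -0.30002 for AT2G21300, -0.3004 for AT2G23700 and -0.30089 for AT4G32440, all inside. It was -0.2987 for UGT73B5, -0.2986 for AT3G29010 and -0.29859 for AT3G45160, all outside. The rule called for group means only, and limma called 122, 158 and 147 of the 181 lower in upf1-1 on days 0, 3 and 6, against 8.55%, 8.44% and 8.27% of all probe sets. It called 128, 155 and 147 lower in upf3-1, against 7.15%, 13% and 9.7%. These contrasts chose the members, and nothing is read from those counts.

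In 98 members every mutant array lay below every wild type array of its day in all 6 comparisons. Over all probe sets 409 did so, or 1.8%, and this measure too comes from the contrasts the rule used. Another 39 members were free of overlap in 5 comparisons and 44 in 4 or fewer. The median mean difference of the 98 was -0.60. Of the 98, 49 have 1 symbol.

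AT4G28180, a gene of unknown function here, showed one of the deepest of these clean separations. Its log2 signal was 6.87, 7.10 and 6.73 in the wild type, 5.35, 5.34 and 5.31 in upf1-1 and 5.47, 5.58 and 5.60 in upf3-1 on day 0. On day 6 it was 5.98, 6.33 and 6.22 in the wild type, 5.01, 5.48 and 5.08 in upf1-1 and 5.02, 4.82 and 5.11 in upf3-1. All mutant arrays were low on each day, with differences from -1.57 to -0.99. AT3G46880, also without a known function here, went from 5.72, 5.37 and 5.56 in the wild type on day 0 to 7.07, 7.02 and 6.82 on day 3, while the upf3-1 arrays of day 3 read 4.90, 5.20 and 4.87. The mutants stayed below the wild type range of the same day throughout, and the deepest difference was -1.98.

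Genes of transcription and chromatin made up 10 of the named members, and 7 of those 10 were free of overlap in all 6 comparisons. So were 49 of all 90 named members and 1.8% of all probe sets. The contrasts the rule used give this measure, and nothing is read from the count. The histone AT3G53650, an H2B that packs DNA into nucleosomes, had the deepest mean difference of the class at -1.04. Its signal was 6.99, 7.14 and 6.94 in the wild type, 6.13, 6.15 and 5.80 in upf1-1 and 6.20, 5.87 and 6.30 in upf3-1 on day 0. On day 3 it was 6.25, 5.97 and 6.33 in the wild type, 4.79, 5.11 and 5.11 in upf1-1 and 5.03, 5.09 and 5.09 in upf3-1. All 6 differences held between -1.18 and -0.90, so the histone was among the steadiest of the deep members. A further 2 H2B genes were members, AT3G09480 with a mean difference of -0.62 and AT2G37470 with -0.46. The Myb-like factors AT2G42660 and AT5G05790 had mean differences of -0.69 and -0.64, and the RNA polymerase subunit NRPB9A -0.44. CHR23, an ATPase that remodels chromatin, read 7.48, 7.41 and 7.34 in the wild type, 7.01, 6.75 and 6.92 in upf1-1 and 7.09, 6.93 and 7.04 in upf3-1 on day 0. All 6 mutant arrays of CHR23 lay below the wild type there, and its mean difference over the days was -0.50.

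The H2B family was then read as a whole, in a list drawn up after the members were seen. Of 11 listed H2B genes 10 were measured, and the mean of the 6 differences was below 0 in all 10. It ranged from -1.04 in AT3G53650 to -0.02 in HTB4, and it was -0.25 in HTB2, -0.28 in HTB11 and -0.21 in HTB1. None of those 4 with an HTB symbol was a member. The family's median difference lay between -0.39 and -0.27 in each of the 6 comparisons, with the 3 members counted in. Those 3 were below 0 by the rule. AT1G08170, AT5G02570 and AT2G28720 had mean levels of 4.47, 3.80 and 3.65, under the rule's 5. The share of all probe sets below 0 was not counted. The median of those that reached the mean level was -0.05.

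AGO7, the Argonaute that acts in the production of trans-acting small interfering RNAs and so in leaf phase change, was the named member of the RNA class. Its signal was 6.86, 6.77 and 6.76 in the wild type on day 0, against 6.11, 6.16 and 6.32 in upf1-1 and 6.28, 6.49 and 6.40 in upf3-1. On day 6 it was 5.79, 6.08 and 6.28 in the wild type, 5.09, 5.60 and 5.51 in upf1-1 and 5.50, 5.53 and 5.64 in upf3-1. Mutant and wild type arrays did not overlap on any day, and the differences ran from -0.65 to -0.40.

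**Figure D2:**
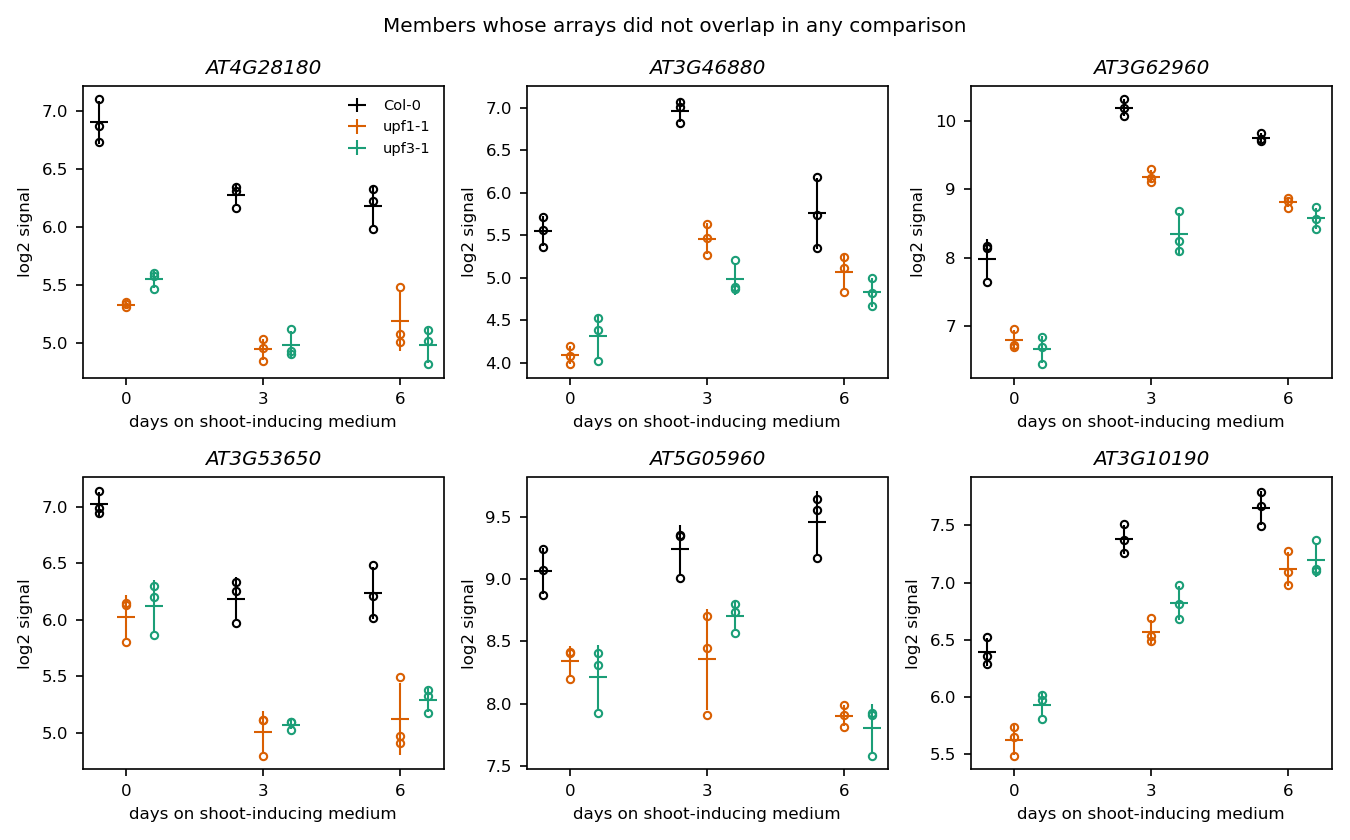
Log2 signal (y axis) against days on shoot-inducing medium (x axis) for 6 members whose arrays did not overlap in any comparison. Circles are single arrays, and bars show the mean and SD of 3 arrays of Col-0 (black), upf1-1 (orange) and upf3-1 (green). AT3G53650 keeps a similar distance on all days, and AT3G62960 and AT3G10190 stay below the wild type as the level climbs in all 3 genotypes.

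Redox and detoxification genes were the largest class of known role, with 11 named members and a median mean difference of -0.79. The CC-type glutaredoxin AT3G62960, of a plant family of small redox proteins, some of which bind TGA transcription factors, led it at -1.25. Its signal was 7.65, 8.14 and 8.16 in the wild type, 6.69, 6.96 and 6.72 in upf1-1 and 6.44, 6.70 and 6.84 in upf3-1 on day 0. On day 3 it was 10.19, 10.32 and 10.07 in the wild type, 9.10, 9.29 and 9.17 in upf1-1 and 8.09, 8.68 and 8.24 in upf3-1. Every mutant array lay below the wild type arrays on all 3 days. The plantacyanin ARPN, a small blue copper protein of the cell surface, and a second CC-type glutaredoxin, GRX480, had mean differences of -0.996 and -0.90. In 7 of the 11 the deepest day was day 6 and in 4 it was day 3.

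Of 20 CC-type glutaredoxins, again listed after the members were seen, 16 were measured and 2 were members. On day 3 the difference from the wild type was below 0 for 15 of the 16 in upf1-1, with a median of -0.75, and for 16 of the 16 in upf3-1, with a median of -0.87. The day 0 medians were -0.01 and -0.15, and those of day 6 were -0.14 and -0.30. The 2 members were below 0 by the rule, and 9 of the 16 reached the mean level. On day 3 the median over all probe sets at that level was -0.03 in upf1-1 and -0.05 in upf3-1. The share of all probe sets below 0 was not counted. The mean over the 6 comparisons was above 0 in 1 of the 16, AT3G62930 at 0.15. Several of these genes lie side by side and are alike in sequence, so cross-hybridisation between their probe sets was not tested.

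Cell wall and extracellular enzymes had 8 named members with a median mean difference of -0.85, and 6 of the 8 were deepest on day 6. AT1G70500, a polygalacturonase-like enzyme of a family that cuts pectin, had mean difference -0.998. Its signal was 8.76, 8.36 and 8.27 in the wild type on day 6, 7.51, 7.70 and 7.03 in upf1-1 and 6.55, 6.86 and 7.06 in upf3-1. Both mutants were below the wild type on day 6, with differences of -1.05 and -1.64 log2. EXLB1, an expansin-like protein of a family that loosens walls, read 6.86, 6.91 and 7.17 in the wild type, 5.19, 5.85 and 6.10 in upf1-1 and 5.10, 5.40 and 5.50 in upf3-1 on day 6. On day 0 the EXLB1 arrays overlapped, at 5.08, 4.27 and 4.62 against 4.13, 3.99 and 4.51 in upf1-1. The rhamnogalacturonate lyase family member AT4G24430 and the pectin methylesterase AT1G05310, both of pectin, had mean differences of -0.95 and -0.83. AT1G05310 read 6.28, 6.15 and 6.30 in the wild type, 5.52, 4.69 and 5.21 in upf1-1 and 4.35, 4.92 and 4.62 in upf3-1 on day 6, its deepest day.

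Signalling proteins numbered 8 with a median of -0.59. AT3G10190, an EF-hand protein of the kind that binds calcium, was free of overlap throughout, with 6.52, 6.36 and 6.29 in the wild type, 5.74, 5.65 and 5.49 in upf1-1 and 6.01, 5.97 and 5.81 in upf3-1 on day 0. Its differences ran from -0.81 to -0.45. The calmodulin-binding protein AT2G26190 had a mean difference of -0.72. Among 5 members of membrane transport, the lipid transfer protein family member AT5G05960 had -1.03, the NPF transporter AT1G33440 -0.82 and the heavy metal-associated domain protein AT5G60800 -0.58. AT5G05960 read 9.56, 9.64 and 9.17 in the wild type on day 6 against 7.99, 7.91 and 7.82 in upf1-1 and 7.58, 7.93 and 7.91 in upf3-1, with no overlap on any day.

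The other named members were spread thinly over roles. In protein turnover, 5 members had a median of -0.55, with the aspartyl protease AT5G07030 at -0.71, the copine AT1G67800 at -0.69 and the F-box protein AT3G20710, of the family that picks proteins for ubiquitination, at -0.55. In metabolism, 8 members had a median of -0.56, with the alpha/beta hydrolase AT3G15650 at -0.91. AT3G15650 read 6.25, 5.79 and 5.56 in the wild type, 4.69, 4.43 and 4.76 in upf1-1 and 5.03, 4.81 and 4.78 in upf3-1 on day 3, with no overlap. Of 7 with another known domain, the glycine-rich protein AT2G05540 had -1.33, the beta-tubulin TUB5 -0.71 and the C1 domain protein AT2G44370 -0.63. AT5G59845, of the gibberellin-regulated family, had -0.91 as the named member of the hormone class. It read 7.24, 6.70 and 6.89 in the wild type, 6.17, 6.28 and 5.97 in upf1-1 and 5.33, 5.55 and 5.71 in upf3-1 on day 6, and arrays of the mutants stayed below the wild type on every day. The 21 named members of unknown function had a median of -0.50. Of these 21, 16 were free of overlap in all 6 comparisons, beside 49 of all 90 named members and 1.8% of all probe sets. This measure comes from the contrasts the rule used, and nothing is read from the count. One of those 16 is AT2G41650, with 9.25, 9.38 and 9.16 in the wild type, 8.35, 8.46 and 8.27 in upf1-1 and 8.43, 7.97 and 8.77 in upf3-1 on day 0, and a mean difference of -0.83.

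Defence genes had 5 named members with the lowest median among the classes of 5 or more, -1.17, and all 5 were deepest on day 3. The chitinases AT3G47540 and CHI belong to enzymes that cut fungal chitin, AT3G26470 carries the RPW8 domain of helper immune receptors, AT1G58410 is an NBS-LRR immune receptor gene and AT1G33790 encodes a jacalin lectin. The immune receptor gene AT1G58410 and the lectin AT1G33790 were free of overlap on all days, with mean differences of -0.56 and -0.57, while both chitinases and AT3G26470 were deeper and more uneven. AT3G47540 read 8.46, 7.90 and 9.71 in the wild type on day 3, 6.01, 6.28 and 6.27 in upf1-1 and 6.14, 6.32 and 7.22 in upf3-1. On that day all 6 mutant arrays were below the wild type, and the differences were -2.50 and -2.13. On day 0 the same gene read 7.23, 6.64 and 8.34 in the wild type, 7.04, 6.22 and 6.62 in upf1-1 and 7.15, 7.04 and 6.73 in upf3-1, and the arrays overlapped.

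The deepest named member of all was AT3G60420, of the phosphoglycerate mutase family, with a mean difference of -2.38. Its signal on day 3 was 9.01, 7.51 and 10.44 in the wild type, from 3.90 to 4.31 in upf1-1, and 5.11, 5.29 and 7.50 in upf3-1. On day 0 it was 7.17, 3.63 and 8.74 in the wild type, so that 1 wild type array lay below every mutant array, of which the upf1-1 ones read 4.83, 3.88 and 4.06 and the upf3-1 ones 6.59, 4.60 and 4.40. Here the spread inside the wild type was as wide as the difference itself on day 0. AT2G25510, of unknown function, had -1.79, with 8.52, 7.13 and 8.34 in the wild type on day 3 against 3.91, 4.19 and 3.99 in upf1-1 and 4.83, 4.05 and 6.45 in upf3-1. AT3G47480, an EF-hand protein, had -1.47.

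These uneven members moved together from array to array. Each array's deviation from its group mean was taken for every probe set, and over the 27 arrays 22 other members had deviations that correlated with those of AT3G60420 at r of 0.7 or more. That is 12.2% of the other members, beside 0.968% of the other probe sets that reached the mean level. The correlation is a description: the arrays share their tissue, their processing and their normalisation. The rule also used the means of these same arrays. Of the 23 members that include AT3G60420, 20 no longer met it without 1 wild type array, described below. A high signal in that array thus helped to choose them, and nothing is read from 12.2% beside 0.968%. Of the 22, 9 have 1 symbol, which are AT3G47480, AT3G26470, AT1G66880, AT3G47540, CHI, AT1G67800, AT3G54150, UGT73D1 and GRX480. With AT3G60420 they make 23, chosen after their values were seen. Their median mean difference was -0.97, beside -0.62 for the other 158. The 23 hold 11 of the 25 members at -1 or lower, and 22 of the 23 were deepest on day 3. These depths come from the differences that the rule used, so the contrast with the other 158 is a description only.

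**Figure D3:**
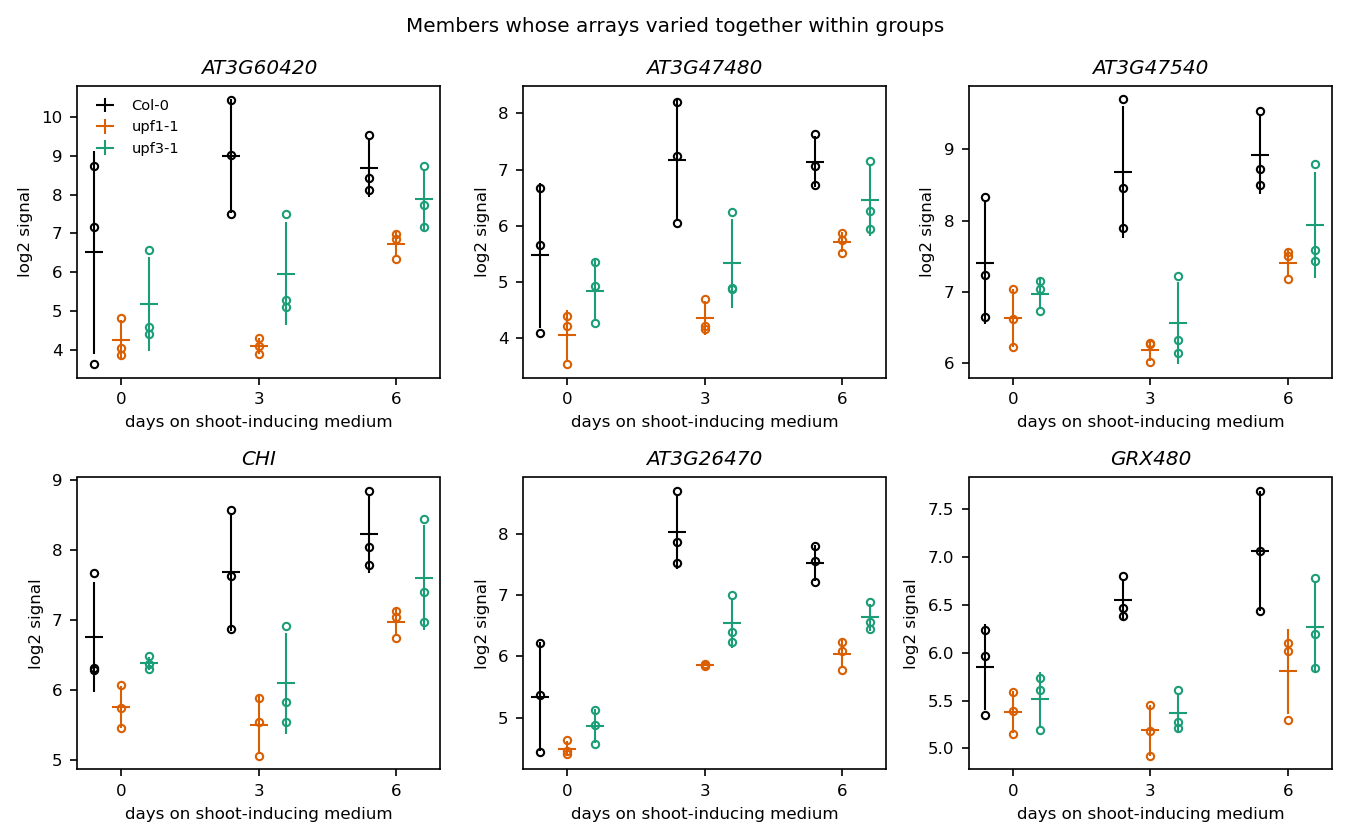
Log2 signal (y axis) against days on shoot-inducing medium (x axis) for AT3G60420 and 5 members that varied with it. Circles are single arrays, and bars show the mean and SD of 3 arrays of Col-0 (black), upf1-1 (orange) and upf3-1 (green). Wild type arrays of day 0 and day 3 are spread widely, and upf1-1 arrays are close together.

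In this set the median deviation from the group mean was 0.83 in wild type day 0 replicate 3 and -0.76 in replicate 2. It was 0.83 in wild type day 3 replicate 3 and -0.77 in replicate 2. In the upf1-1 arrays it stayed between -0.27 and 0.20, and in upf3-1 it reached 0.37 in day 3 replicate 3 and 0.45 in day 6 replicate 2. None of the 23 was free of overlap in all 6 comparisons, beside 98 of the other 158 members and 1.8% of all probe sets. They were chosen for sharing the deviations of AT3G60420, whose own arrays overlapped, so nothing is read from this count. Without wild type day 0 replicate 3, 36 of the 181 no longer met the rule, and 20 of those 36 belong to these 23. The day 0 difference in upf3-1 then became -0.20 for AT3G60420, -0.03 for AT3G47480, 0.03 for AT3G47540, -0.05 for AT3G26470 and 0.08 for CHI. For 20 of the 23, then, the day 0 part of the rule rests on that array.

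The depth of the difference depended on the day. Averaged over both mutants, 34 members were deepest on day 0, 83 on day 3 and 64 on day 6. The 3 daily values lay within 0.2 log2 of each other in 64 members. In 49 members they differed by more than 0.5, and of these 1 was deepest on day 0, 27 on day 3 and 21 on day 6. The day 6 group holds AT2G05540, which read 7.85, 6.94 and 7.24 in the wild type on day 6 against 5.83, 5.32 and 5.62 in upf1-1 and 5.36, 5.33 and 5.07 in upf3-1. Both mutants read low there, below all wild type arrays. The deepest day was the same in both mutants for 105 of the 181.

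**Figure D4:**
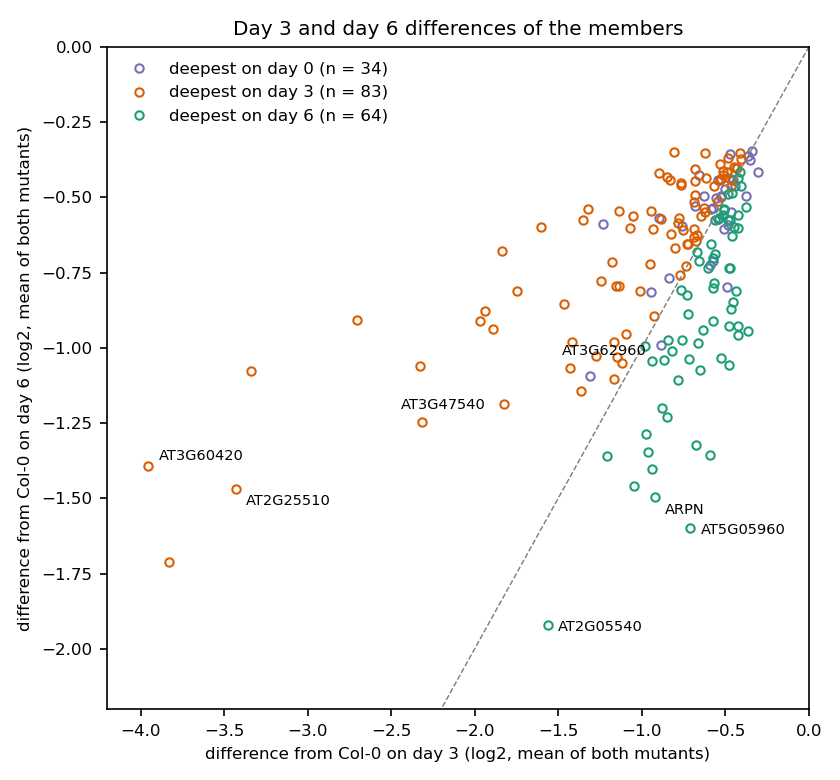
Each circle is 1 of the 181 members, with the mean difference of both mutants from Col-0 on day 3 (x axis, log2) and on day 6 (y axis, log2). Colour gives the day on which the difference was deepest, and the dashed line marks equal values. A tail of members deepest on day 3 reaches -3.95 for AT3G60420, and AT2G05540 is the deepest named member on day 6.

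The change over time inside a genotype and the difference between the 2 mutants were not used by the rule, although they come from the same arrays. They were tested with limma in 1 model of all 9 groups, with adjustment over all 22746 probe sets and a call at an adjusted p under 0.05. In the wild type, 55 members rose and 44 fell from day 0 to day 3, or 30.4% and 24.3%, beside 14.9% and 16.3% of all probe sets. From day 0 to day 6, 56 rose and 58 fell, beside 16.9% and 20.1% of all. Among probe sets that reached the mean level, which all members did, 20.3% rose and 21.3% fell to day 3, and 22.5% rose and 26.3% fell to day 6. Each array's scale matters to these directions: with arrays centred on poly-A spike-in probe sets, every wild type change moves up by 0.25 to day 3 and by 0.67 to day 6, and 78 members rose and 27 fell to day 3, and 124 rose and 22 fell to day 6.

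Of the named members, AT2G25510 rose furthest in the wild type, by 3.34 log2 (SE 0.433, limma adjusted p = 1.99e-06) to day 3 and by 2.69 to day 6 (limma adjusted p = 2.895e-05). AT3G26470 rose by 2.68 (SE 0.310, limma adjusted p = 3.776e-07) to day 3. The glutaredoxin AT3G62960 rose by 2.21 to day 3 in the wild type, by 2.40 in upf1-1 and by 1.68 in upf3-1 (SE 0.14 each, limma adjusted p = 2.604e-11, 1.4e-11 and 2.156e-09), so it climbed in all 3 genotypes while its distance from the wild type persisted. The calcium-binding AT3G10190 rose by 0.99, 0.95 and 0.89 (SE 0.106, limma adjusted p = 1.265e-07, 3.633e-07 and 5.307e-07). AT3G60420 rose by 2.47 (SE 0.901, limma adjusted p = 0.03903) in the wild type to day 3, and the call was lost without wild type day 0 replicate 2 (limma adjusted p = 0.363), day 3 replicate 1 (0.0806) or day 3 replicate 3 (0.202).

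Of the 8 cell wall members, 6 rose and none fell in the wild type by day 3, and 4 rose and none fell by day 6. Over all members 30.4% and 30.9% rose to days 3 and 6, and over probe sets at the mean level 20.3% and 22.5% did. BGLU28, a beta-glucosidase that can cleave glucosinolates, read 8.89, 9.34 and 9.28 on day 0 and 11.34, 10.80 and 11.25 on day 3, a rise of 1.96 (SE 0.281, limma adjusted p = 7.868e-06). EXLB1 rose by 1.27 to day 3 and by 2.33 to day 6 (SE 0.317, limma adjusted p = 0.003277 and 3.281e-06), and AT1G70500 by 0.91 to day 3 (SE 0.184, limma adjusted p = 0.0004618). The calls of 3 of the 6 rested on single arrays. They were lost for AT4G24430 without wild type day 0 replicate 2, day 3 replicate 1 or day 3 replicate 2 (limma adjusted p = 0.0528, 0.0598 and 0.0813), for AT4G33810 without day 0 replicate 1 or day 3 replicate 2 (0.0961 and 0.101), and for TBL34 without day 3 replicate 1 (0.104). At day 6 the call of AT1G70500 was lost without day 6 replicate 1 (0.0586), and that of TBL34 without day 0 replicate 2 or 3 or day 6 replicate 1 or 2 (0.0749, 0.0586, 0.0633 and 0.125).

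The deepest falls of named members over time were called in all 3 genotypes. The short-chain dehydrogenase AT5G02540 read 9.67, 9.67 and 9.49 in the wild type on day 0, then 6.79, 6.95 and 6.99 at day 3, and finally 5.92, 5.98 and 5.75 at day 6. Its change to day 6 was -3.73 in the wild type, -3.92 in upf1-1 and -4.71 in upf3-1 (SE 0.108, limma adjusted p = 8.877e-17, 2.856e-17 and 4.694e-19). The alpha/beta hydrolase AT1G78210 gave -2.50, -2.41 and -2.60 (SE 0.113, limma adjusted p = 6.983e-14, 1.272e-13 and 2.482e-14). With spike-in centring the wild type values to day 6 were -3.06 for AT5G02540 and -1.83 for AT1G78210.

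Of the 10 transcription and chromatin members, 3 fell and 1 rose in the wild type by day 3, and 6 fell and 1 rose by day 6. The 3 falls to day 3 are near the share over all members, 24.3%, and over probe sets at the mean level, 21.3%. For falls to day 6 those shares were 32.0% and 26.3%. The histone AT3G53650 fell to day 3, with changes of -0.84 in the wild type, -1.02 in upf1-1 and -1.05 in upf3-1 (SE 0.147, limma adjusted p = 0.0001008, 1.211e-05 and 5.229e-06). AT2G37470 fell by 1.05 in the wild type (SE 0.152, limma adjusted p = 8.927e-06). The Myb-like AT5G05790 was the one that rose, by 1.50 to day 3 (SE 0.205, limma adjusted p = 4.128e-06). The day 6 falls of this class depend on the scale: with spike-in centring AT3G53650 was at -0.12 (limma adjusted p = 0.472) and AT2G37470 at -0.25 (0.135), while the values of AT3G09480, CHR23, NRPB9A and AT1G13880 turned above 0. The day 6 call of AT3G09480 was also lost without wild type day 0 replicate 2 (0.0602) or day 6 replicate 3 (0.0665), and that of AT1G13880 without day 0 replicate 1 or 2 or day 6 replicate 1 or 2 (0.0904, 0.0719, 0.0715 and 0.091).

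In upf1-1, 33 members rose and 46 fell to day 3, beside 12% and 12.2% of all probe sets, and 46 rose and 58 fell to day 6, beside 15.5% and 16.7%. In upf3-1, 36 rose and 59 fell to day 3, beside 15.6% and 18.6%, and 51 rose and 79 fell to day 6, beside 19.5% and 22.7%. Against probe sets that reached the mean level, as all members did, the rises to day 3 were near the background, at 18.2% of members beside 16.7% in upf1-1 and 19.9% beside 20.2% in upf3-1. The rises to day 6 were 25.4% beside 20.6% in upf1-1 and 28.2% beside 25.3% in upf3-1. The falls were 25.4% beside 15.6% to day 3 and 32.0% beside 21.7% to day 6 in upf1-1. In upf3-1 they were 32.6% beside 24.5% to day 3 and 43.6% beside 29.6% to day 6. With spike-in centring, 38 rose and 28 fell in upf1-1 and 65 rose and 26 fell in upf3-1 to day 3, and 83 rose and 30 fell in upf1-1 and 92 rose and 37 fell in upf3-1 to day 6. AT2G05540 fell to day 6, with -1.46 in upf1-1 and -1.77 in upf3-1 (SE 0.232, limma adjusted p = 3.12e-05 and 1.367e-06), and its wild type value was -0.20 (limma adjusted p = 0.5573). The difference between mutants and wild type in that change was not tested, since the rule used the contrasts that make it up. ARPN fell to day 6 in all 3 genotypes, with -1.66 in upf1-1, -1.76 in upf3-1 and -0.79 in the wild type (SE 0.172, limma adjusted p = 7.523e-08, 1.829e-08 and 0.0008478), and with spike-in centring its wild type value was -0.12 (limma adjusted p = 0.544).

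**Figure D5:**
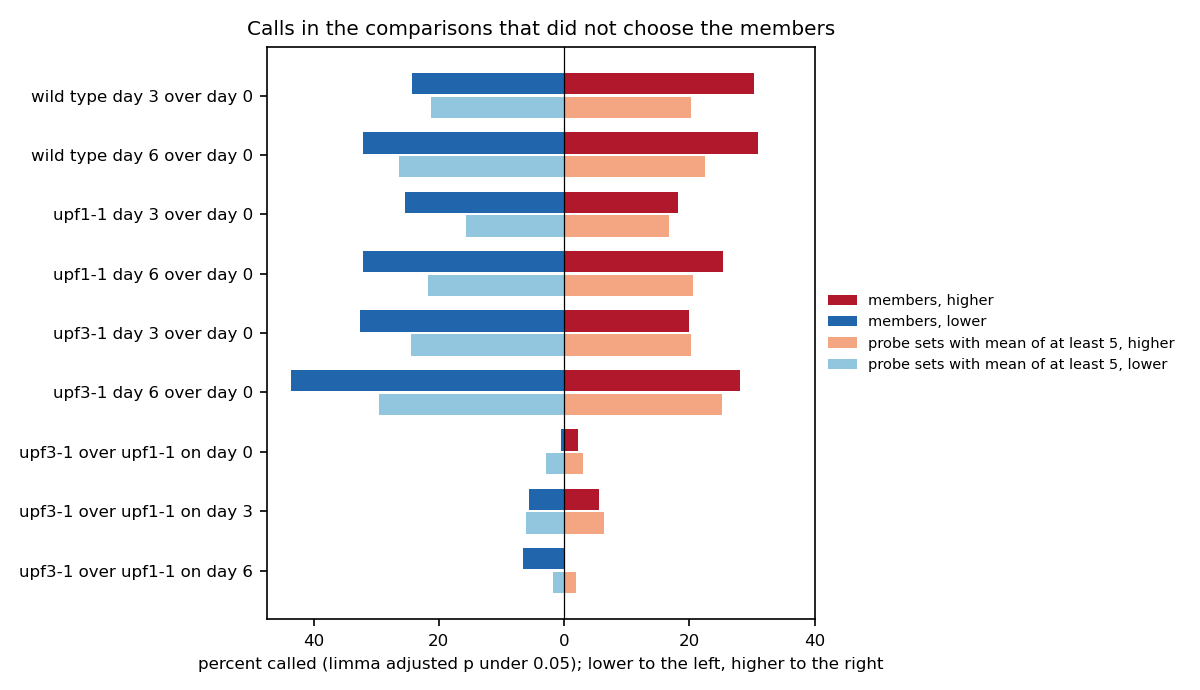
Bars give the percent of features called by limma at an adjusted p under 0.05, lower to the left of 0 and higher to the right, for the 9 comparisons that the member rule did not use. Dark bars are the 181 members and light bars are the probe sets with a mean of at least 5. Members were called lower on day 6 in upf3-1 in 43.6% of cases, and the bottom bar holds 12 members lower in upf3-1 than in upf1-1 and 0 higher.

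The last question is whether the 2 mutants, both below the wild type, differed from each other. On day 0, 4 members were higher and 1 lower in upf3-1 than in upf1-1, or 2.21% and 0.55%. Over all probe sets 2.28% and 2.22% were called, and over those at the mean level 3.07% and 2.84%. Neither share of the members thus stood above the background. The C1 domain protein AT1G66440 read 5.83, 5.76 and 5.94 in upf3-1 and 5.24, 5.35 and 4.85 in upf1-1, a difference of 0.70 (SE 0.155, limma adjusted p = 0.01053) that lost its call without upf1-1 day 0 replicate 3 (0.0737). AT1G58410, the immune receptor gene, was higher by 0.48 (SE 0.107, limma adjusted p = 0.01114), and lost its call without upf3-1 day 0 replicate 2 (0.0564). Leaving out an array brought the count of 5 down to 2 without upf1-1 replicate 1, 3 without upf1-1 replicate 2, 2 without upf1-1 replicate 3 and 1 without upf3-1 replicate 2.

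On day 3, 10 members were higher and 10 lower in upf3-1, beside 5.5% and 4.5% of all. The glutaredoxin AT3G62960 was at -0.85 log2 (SE 0.14, limma adjusted p = 0.000434), from the arrays given above, and its 3 upf3-1 arrays lay below the 3 of upf1-1. The Agenet domain protein AT1G26540 read 5.88, 6.28 and 6.00 in upf3-1 and 6.77, 6.79 and 6.66 in upf1-1, a value of -0.68 (SE 0.0849, limma adjusted p = 2.2e-05). AT5G02540 was higher in upf3-1 by 0.52 (SE 0.108, limma adjusted p = 0.003159). The aspartyl protease AT5G07030 was higher by 0.90 (SE 0.209, limma adjusted p = 0.007328), a call lost without upf1-1 day 3 replicate 2 (0.0608) or upf3-1 day 3 replicate 1 (0.067). BGLU28 was at -0.92 (SE 0.281, limma adjusted p = 0.03862), a call lost without upf1-1 day 3 replicate 2 or 3 (0.167 and 0.11) or upf3-1 day 3 replicate 1 or 3 (0.21 and 0.108). The count of 20 became 12 without upf1-1 day 3 replicate 2, 9 without upf3-1 day 3 replicate 1, 30 without upf3-1 day 3 replicate 2 and 63 with array weights. The shares of members called, 5.52% in each direction, were near the 6.37% and 6.12% of probe sets at the mean level.

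On day 6, 12 members were lower and 0 higher in upf3-1 than in upf1-1, beside 1.32% and 1.46% of all probe sets, and 36 members had an unadjusted p under 0.05 in either direction. As shares, 6.63% of members were called lower and 0% higher, beside 1.80% and 1.92% of probe sets at the mean level. Of the 12, 5 belong to the redox class: AT1G75280, AT1G72230, AT2G15780, AT5G07800 and AT5G02540. That class is the largest of known role, with 11 named members, and members without a name have no class. No test was made of the class, and nothing is read from this count of 5. Of these 5, the calls of AT1G75280 and AT1G72230 held with any 1 array left out. The call of AT5G07800 (-0.61, limma adjusted p = 0.04139) was lost with any 1 of the 6 arrays left out, at 0.0735, 0.0665 and 0.115 without upf1-1 day 6 replicates 1, 2 and 3 and 0.0833, 0.178 and 0.0609 without those of upf3-1. The call of AT5G02540 (-0.46, limma adjusted p = 0.0205) was lost without upf1-1 day 6 replicate 2 or 3 (0.0687 and 0.0595) or upf3-1 day 6 replicate 2 or 3 (0.126 and 0.111). The isoflavone reductase-like AT1G75280 read 9.60, 9.32 and 9.48 in upf3-1, 10.45, 10.02 and 10.10 in upf1-1 and 10.88, 10.91 and 10.61 in the wild type, a mutant difference of -0.72 (SE 0.137, limma adjusted p = 0.004669). The blue copper protein AT1G72230 read 7.54, 7.63 and 7.80 in upf3-1 and 8.19, 8.24 and 8.27 in upf1-1, a difference of -0.58 (SE 0.103, limma adjusted p = 0.003148). In both genes the 3 genotypes fell into 3 ranges that did not overlap, with upf3-1 lowest. AT1G75280 and AT1G72230 were singled out after their values were seen, because no single array decided their calls. The membership of AT1G75280 did rest on 1 array. Without wild type day 0 replicate 3 its upf1-1 day 0 difference was -0.26, short of the rule's 0.3. With spike-in centring the call of AT1G72230 was lost (-0.52, limma adjusted p = 0.238).

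The 2 deepest named day 6 values also rested on single arrays. AT4G24430 was at -0.89 (SE 0.240, limma adjusted p = 0.04547), a call lost without any 1 of upf1-1 day 6 replicates 1, 2 and 3 (0.0671, 0.154 and 0.0741) or upf3-1 day 6 replicates 1 and 2 (0.187 and 0.143). AT2G15780, another blue copper protein, was at -0.87 (SE 0.207, limma adjusted p = 0.02254), a call lost without upf1-1 day 6 replicate 2 (0.134) or upf3-1 day 6 replicate 1, 2 or 3 (0.0518, 0.0576 and 0.105). The count of 12 became 7 without upf1-1 day 6 replicate 1, 5 without upf1-1 replicate 2, 3 without upf3-1 replicate 2 and 6 without upf3-1 replicate 3. With spike-in centring 2 members were called lower, AT1G75280 and 1 probe set without a name. The difference between the mutants in the change from day 0 was called higher for 1 member and lower for 2 to day 3, beside 1.45% and 0.602% of all probe sets, and higher for 0 and lower for 2 to day 6, beside 0.677% and 0.251%.

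Family and position were the last features the rule did not use. The 90 named loci were spread over the 5 chromosomes as 24, 18, 17, 9 and 22, taken from locus names. One pair were direct neighbours, AT5G07860 and AT5G07870, both acyltransferases of the HXXXD type, and cross-hybridisation between such near copies was not tested. The EF-hand gene AT3G47480 and the chitinase AT3G47540 have 5 coding genes between them, and both belong to the set that varied with AT3G60420. By symbol, 2 of 17 trichome birefringence-like genes were members, TBL34 and TBL38, which act on wall polysaccharide acetylation. This family, the beta-glucosidases and the tubulins were added to the count after the members were seen. Nothing is read from their counts. By the same count 1 of 33 UDP-glycosyltransferases, 1 of 12 expansins, 1 of 10 beta-glucosidases and 1 of 9 tubulins were members. Of 7 peroxidases 0 were members. Among all probe sets with 1 symbol that reached the mean level, 90 of 8158 were members. A search by symbol misses genes named by locus alone, such as the member AT5G49690, a UDP-glycosyltransferase. These are therefore not counts of whole families. Of 8 class IV chitinases, listed after the members were seen, 7 were measured, and 2 were members. The others did not share one direction: AT2G43610 differed from the wild type by -1.35, 0.20 and -0.63 in upf1-1 and by -0.89, 1.42 and 0.01 in upf3-1 over the days.

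The scale of the arrays bears on the whole set. The mean of the poly-A control probe sets differed from the wild type by -0.30, -0.18 and -0.06 log2 in upf1-1 and by -0.24, -0.29 and -0.12 in upf3-1, in the order of the days, and the labels do not say that these controls were added. With arrays centred on them, all 181 members stayed below the wild type in all 6 comparisons. The rule fixed that outcome, since the largest of these shifts, -0.2987 in upf1-1 on day 0, is smaller than the 0.3 required. A difference of 0.3 or more in each comparison was kept by 27 members. The median over all probe sets that reached the mean level then became 0.26, 0.15 and 0.03 for upf1-1 and became 0.20, 0.23 and 0.07 for upf3-1. The centring moves every probe set of a comparison alike, so it changes the members' distance from 0 and not their place among the other probe sets. Probe sets marked for possible cross-hybridisation by their suffix made up 6 of the 181.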

How the data were processed

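The authors deposited log2 signals per probe set made with RMA, per the submitters' processing notes, with a version not given in the sources used here. This method forces all arrays onto 1 distribution, which hides any shift common to most genes. A second deposited table held the same values and gave no separate result. No column lacked a sample (0 columns). Precision is limited by 3 arrays a group.

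Computed here: group means for the member rule, and limma (3.58.1, R 4.3.3, statmod 1.5.0) with 9 group means over 27 arrays and Benjamini-Hochberg adjustment over 22746 probe sets. It was tried on simulated arrays with each probe set's mean and spread, independent noise and few changed probe sets. In wild type day 3 over day 0 it called 54 of 67 made 1.5-fold different. It called 63 of 67 at 2-fold, 66 of 66 at 4-fold and 11 unchanged ones. In the real comparison 31.2% of probe sets were called and some deviations were shared between probe sets. The simulation had neither trait, so its numbers do not measure performance on the real arrays. Replicate numbers were not blocked, because no label says that they mark a shared culture or day. Over all probe sets, deviations of same-numbered replicates had a median r of -0.015 over 108 pairs, with 24 above 0.1. Other pairs had 0.003 over 216, with 55 above 0.1. In the set that varied with AT3G60420, wild type replicates 2 and 3 did deviate alike on days 0 and 3.

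The members and lists were chosen with earlier results of these data known. Named genes were the 10 deepest members with 1 symbol, the 3 deepest of each class, the 2 highest and 2 lowest called in each tested comparison, those at the threshold and neighbours. Others, and the lists of H2B histones, CC-type glutaredoxins and class IV chitinases, were chosen after values were seen. So were the families of trichome birefringence-like genes, beta-glucosidases and tubulins. The reference table gives no descriptions, so roles come from general knowledge. Families by protein identity and promoter motifs were not analysed here. Symbols and neighbours come from the platform annotation and a RefSeq table (TAIR10.1), and no coordinates are given. Alternatives are given in the closing section.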

Additional observations from a re-analysis of the deposited data

Results flagged for a closer look

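The change from day 0 differed between the 2 mutants in 5 cases, by limma's test of that difference, a test added after the data were seen. On day 3 a member without a name here changed by 1.23 more in upf3-1 than in upf1-1 (SE 0.251, limma adjusted p = 0.009624). On day 3 AT1G26540, the Agenet domain protein, gave -0.64 (-0.635, SE 0.12, limma adjusted p = 0.005471) and the acyltransferase AT5G07860 gave -0.59 (SE 0.141, limma adjusted p = 0.02784). On day 6 AT5G07860 gave -0.71 (SE 0.141, limma adjusted p = 0.01206) and the dehydrogenase AT5G02540 gave -0.79 (SE 0.153, limma adjusted p = 0.01095). Negative values mean a lower change in upf3-1.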

How the results depend on the processing

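The number of members, 181, was 536 with a gap of 0.2, 33 with a gap of 0.5, 98 with no overlap of arrays, 27 with poly-A spike-in centring, and between 161 and 220 with 1 array left out. It was 208 and 134 with a mean level of 4 and 6, and 168 with group medians, of which 126 are among the 181. With 1 array left out, members called in the wild type numbered 80 to 105 on day 3 and 92 to 116 on day 6, in upf1-1 71 to 76 and 88 to 101, and in upf3-1 84 to 90 and 108 to 121. For upf3-1 over upf1-1 they numbered 1 to 4 on day 0, 9 to 30 on day 3 and 3 to 13 on day 6. With the replicate number as a block, 3 members were called in upf3-1 over upf1-1 on day 0 in place of 5. No label says that the numbers pair the samples. With spike-in centring, upf3-1 over upf1-1 gave 2, 11 and 2 members on days 0, 3 and 6 in place of 5, 20 and 12. Array weights gave 63 on day 3, and a fit of only the 2 groups gave 13 on day 3 and 7 on day 6. The cause was not tested. Of 80 values of named members, 46 kept their direction and call under every alternative run. With spike-in centring 4 wild type changes to day 6 turned above 0: AT3G09480 to 0.19, CHR23 to 0.15, NRPB9A to 0.25 and AT1G13880 to 0.42.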
